A study of Mus musculus with 4 samples.

Results

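The cells described here are the lymphatic endothelial cells of the mouse aorta, picked out of 2 libraries of sorted aortic endothelial cells by the transcripts they carry. A cell was taken when it held at least 500 UMIs (unique molecular identifiers, each standing for 1 captured RNA molecule), at most 15% of them mitochondrial, at least 1 UMI of 3 or more of the 8 genes Ccl21a, Mmrn1, Lyve1, Reln, Nts, Prox1, Flt4 and Pard6g, and no UMI of Ptprc, the pan-leukocyte gene. The rule found 199 of 1973 kept aortic cells, out of 3256 kept cells in the whole series, and these are called lymphatic rule cells. The knockout (KO) aortic library held 161 of them and the wild-type (WT) aortic library 38. The members were thus selected on their own counts of these genes. KO mice lacked Oct4 (the pluripotency transcription factor encoded by Pou5f1) in endothelial cells, and WT mice carried an intact Oct4. Mice of both genotypes were female, Apoe-deficient and of the C57/B6J strain, carried an eYFP label of the endothelial lineage switched on by a Cdh5 driver, and had eaten a Western diet for 5 weeks; no age is given. Cdh5 is expressed by blood and lymphatic endothelium alike, so the deletion and the label were not specific to lymphatic cells. Tissue of 3 KO mice and of 2 WT mice was pooled into 1 library per genotype, aorta (arch, thoracic and abdominal) and left lung lobe separately, after digestion with the transcription blocker actinomycin D present at 1 µg/mL throughout. With 1 library per group there is no replicate check, so differences carry no p-value, and every 95% interval covers counting error only.

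Lymphatic vessels return tissue fluid, dietary fat and immune cells to the blood, and in the aorta they lie in the outer layer of the wall, the adventitia, outside the blood endothelium that lines the lumen. Their identity is held by the transcription factor PROX1, and they grow in response to the ligand VEGF-C acting on the receptor VEGFR-3, the product of Flt4. Initial lymphatic capillaries carry the hyaluronan receptor LYVE-1 and secrete the chemokine CCL21, which draws CCR7-bearing dendritic cells and T cells into the vessel, while collecting vessels have less LYVE-1 and carry valves.

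Ccl21a is shown in sequence because it is the most heavily counted of the rule's genes and the mouse genome holds near copies of it, so that its level is that of a family. On mm10 (GENCODE M21) the gene lies at chr4:42772860-42773993 on the minus strand, and a second Ccl21a entry lies on the unplaced scaffold JH584294.1; the deposited rows of this symbol were summed. The coding sequences of Ccl21a and of its copy Ccl21b are both 402 bases long and differ at 2 positions, counted from 1 at the A of the start codon and printed as capitals: T84A (Ccl21a first), in codon 28, and C194T, in codon 65.
Bases 1 to 300 of both are shown.
Ccl21a: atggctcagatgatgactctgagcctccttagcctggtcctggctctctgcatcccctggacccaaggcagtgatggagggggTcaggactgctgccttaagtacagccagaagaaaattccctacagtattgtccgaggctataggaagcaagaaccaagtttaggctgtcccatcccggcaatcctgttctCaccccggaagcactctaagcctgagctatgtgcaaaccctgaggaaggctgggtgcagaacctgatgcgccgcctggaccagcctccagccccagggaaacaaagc
Ccl21b: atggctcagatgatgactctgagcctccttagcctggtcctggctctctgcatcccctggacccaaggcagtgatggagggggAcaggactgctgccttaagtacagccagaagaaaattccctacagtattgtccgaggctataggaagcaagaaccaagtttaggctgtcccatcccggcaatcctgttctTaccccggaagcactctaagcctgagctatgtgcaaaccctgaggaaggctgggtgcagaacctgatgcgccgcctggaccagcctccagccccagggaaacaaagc
Another copy, Gm10591, has the same coding sequence as Ccl21b. The libraries read the 3′ end of a transcript, where 56.6% of the 50-base stretches of Ccl21a also occur in another gene's transcripts. Counts of the copies in the lymphatic rule cells were few: Ccl21b had 0 UMIs in KO and WT, Ccl21c had 20 in KO and 15 in WT, and Gm21541 had 77 and 16, against 10497 and 1991 UMIs of Ccl21a. None of these copies had a UMI in the other aortic cells. How reads shared by the copies were assigned is not stated, so Ccl21a below means the Ccl21 family as counted.

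The deposited aortic libraries held 1623 barcodes and 4483756 UMIs (KO) and 449 barcodes and 1034161 UMIs (WT), of which 1569 and 404 cells were kept. The 4 libraries shared between 0 and 2 cell barcodes pairwise. Oct4 itself could not check the labels: Pou5f1 had 1 UMI in the whole KO aortic library and 0 in the WT one, and 0 in the lymphatic rule cells of both. Lymphatic rule cells held 387348 UMIs (KO) and 78109 UMIs (WT), with a median of 2026 and 1793.5 per cell. A count of 0 therefore allows up to 7.74 CPM (a gene's UMIs per 1000000 UMIs of the summed cells) in KO and 38.4 CPM in WT, taking 3 counts as the floor.

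Lymphatic rule cells made up 10.3% of kept KO aortic cells (exact 95% interval 8.80 to 11.9) and 9.41% of kept WT aortic cells (6.74 to 12.7). The intervals overlapped. The eYFP gate and the digestion set how many of these cells reach a library, so the shares are those of the sorted cells and not of the vessel wall. Most aortic cells held none of the 8 markers: 1210 KO and 322 WT cells. A further 160 KO and 38 WT cells held 1 marker, and 38 KO and 6 WT cells held 2, just outside the rule. From 3 to 8 markers the KO cells numbered 28, 30, 26, 40, 28 and 9, and the WT cells 5, 6, 5, 9, 7 and 6. Pdpn, which the rule did not use, was seen in 8 of 28 KO cells with 3 markers and in 4 of 38 KO cells with 2; in WT it was seen in 1 of 5 and in 0 of 6. Flt1, a receptor of blood endothelium, was seen in 2 of the KO cells with 3 markers and in 7 of those with 2. The step from 2 to 3 markers therefore holds cells of both kinds, and the Ptprc condition removed no cell that had 3 markers.

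**Figure D1:**
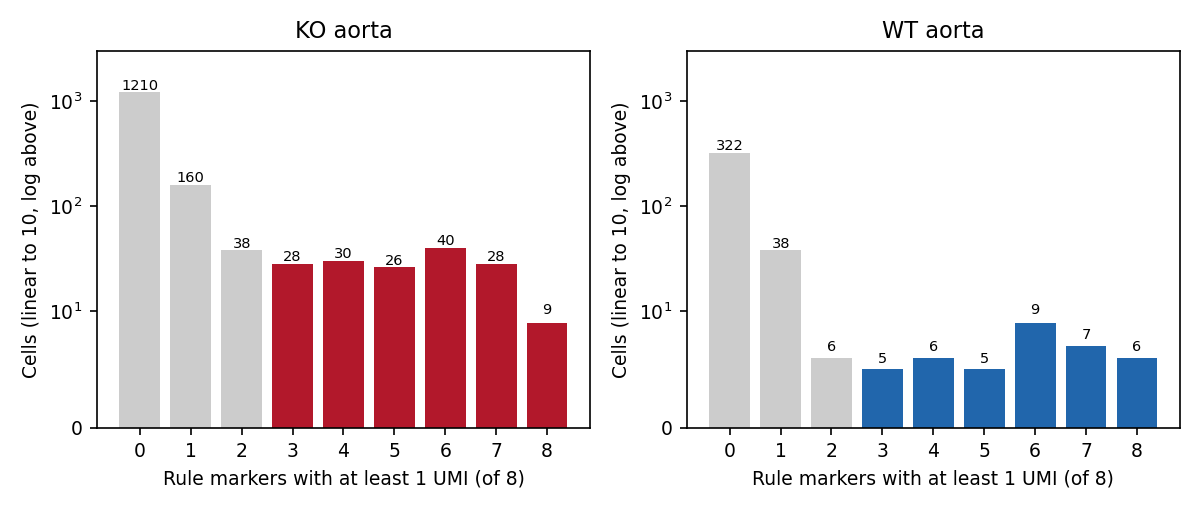
Kept aortic cells by the number of the 8 rule markers with at least 1 UMI, KO left and WT right; the vertical axis is linear to 10 and logarithmic above, and each bar carries its count. Coloured bars (3 or more markers) are the lymphatic rule cells; in KO the numbers stand between 9 and 40, with the highest at 6 markers as in WT.

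The 8 genes of the rule are given first as a description, since they chose the cells. Ccl21a stood at 27100 CPM in KO rule cells and 25490 CPM in WT rule cells, against 17.6 and 16.5 CPM in the other aortic cells. It had at least 1 UMI in 123 of 161 KO and 34 of 38 WT rule cells. Per cell its level ran from 0 over a median of 24799 to 119551 CPM in KO, and from 0 over 20410 to 92402 CPM in WT. The chemokine was thus high in most of the cells, with few UMIs in others and none in the rest, in either genotype. Mmrn1, the gene of the adhesive protein multimerin 1, was the marker found in most cells: 149 KO and 36 WT rule cells. Its level was 2321 CPM in KO and 3828 CPM in WT rule cells. Lyve1 stood at 2458 CPM in KO and 4186 CPM in WT, and Reln, which encodes the secreted glycoprotein reelin, at 653 and 1075 CPM. Nts, the precursor of the peptide neurotensin, was instead the higher in KO, with 2535 CPM in KO and 1216 CPM in WT. Prox1 was seen in 62 of 161 KO and 17 of 38 WT rule cells, at 230 and 256 CPM, and Flt4 in 97 and 22 cells, at 439 and 461 CPM. Pard6g, which encodes a cell polarity adaptor, stood at 501 CPM in KO and 845 CPM in WT.

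At an equal depth of 1000 UMIs per cell, which left out 29 KO and 9 WT rule cells, Prox1 was detected in 26.5% of KO (19.2 to 34.9) and 17.2% of WT rule cells (5.85 to 35.8), against 0.931% of the other KO and 0.990% of the other WT aortic cells. Ccl21a was then detected in 72.7% of KO (64.3 to 80.1) and 89.7% of WT rule cells (72.6 to 97.8), against 1.63% and 1.65% of the others. Without thinning Ccl21a had UMIs in 4.19% of the other KO and 3.83% of the other WT cells, and at 17.6 and 16.5 CPM this level was alike in both libraries. The 8 markers thus define the rule cells at a level far over the low counts spread over the remaining cells, and Prox1 is limited by depth in the single cell.

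**Figure D2:**
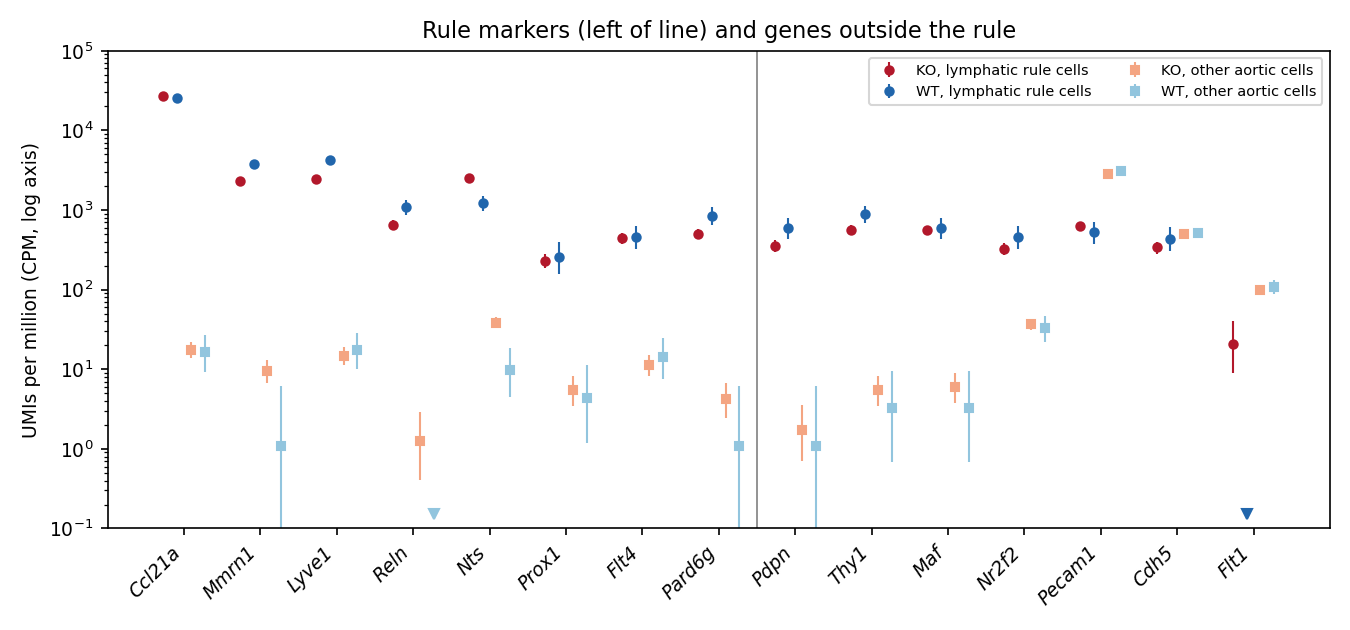
Summed CPM (logarithmic axis) of the rule markers, left of the line, and of genes the rule did not use, in KO and WT lymphatic rule cells and in the other aortic cells of each library; bars are exact Poisson 95% intervals and triangles mark 0 UMIs. Ccl21a, at 27100 and 25490 CPM, stands over all, while Flt1, at 20.7 CPM in KO rule cells and 0 in WT, is lower there than in the other cells.

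Genes known from lymphatic endothelium that the rule did not use were also high in these cells, and the label is kept as a description. Of 1405 genes measured (a mean of at least 100 CPM over the 2 sums and at least 30 UMIs in them together), 107 were at least 2-fold higher in rule cells than in other aortic cells in both libraries, which is 7.62%, and 124 were at least 2-fold lower, which is 8.83%. These are sizes and not tests, since the marker genes and all others come from the same cells. A gene low on 1 side reaches the measured level only where it is high on the other. The filter therefore favours higher lymphatic and lower blood endothelial members in the list counts below, which lend the label no support of their own. Pdpn encodes podoplanin, the platelet-receptor ligand that keeps lymph and blood apart; it stood at 351 CPM in KO and 589 CPM in WT rule cells, against 1.74 and 1.10 CPM in the others. That is a ratio of 202 in KO (95.5 to 512) and 537 in WT (91.7 to 21661), the last resting on 1 UMI in the other WT cells. Per cell Pdpn ran from 0 over a median of 0 to 3444 CPM in KO and from 0 over 515 to 3756 CPM in WT, so that a minority of KO cells and a majority of WT cells had a UMI: 79 of 161 and 25 of 38. Thy1, a surface glycoprotein used to sort lymphatic endothelium, stood at 563 CPM in KO and 883 CPM in WT rule cells, against 5.46 and 3.29 CPM in the others. The transcription factor gene Maf stood at 558 and 589 CPM, against 5.95 and 3.29 CPM.

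Of 20 lymphatic transcription factors 3 were measured, and all 3 were at least 2-fold higher in both libraries: Maf, Nr2f2 and Tbx1. Nr2f2 (COUP-TFII), which works with PROX1, had 328 CPM in KO and 461 CPM in WT rule cells, against 36.5 and 32.9 CPM in the others, which is 8.99-fold higher in KO (7.03 to 11.5). Tbx1, needed for lymphatic growth, was nearer to the others, at ratios of 2.79 (2.10 to 3.65) and 3.18 (1.78 to 5.43). Foxc2, the factor of valve formation, was too low to be measured, at 64.5 CPM in KO and 51.2 CPM in WT rule cells against 47.1 and 34.0 CPM in the others.

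Of 30 lymphangiogenic ligands, receptors and processing genes 9 were measured, 2 higher and 2 lower in both libraries. Kdr, the gene of VEGFR-2, was 8.89-fold higher in KO (6.97 to 11.3) and 11.4-fold higher in WT (7.03 to 18.4), and Pdpn was the other higher member. Tek, the angiopoietin receptor TIE2, stood at 103 CPM in KO and 115 CPM in WT rule cells, against 267 and 256 CPM in the others. Ptprb, the phosphatase VE-PTP that holds TIE2 in check, stood at 134 and 76.8 CPM, against 785 and 986 CPM. The related receptor gene Tie1 did not follow Tek, with ratios of 1.39 in KO and 2.09 in WT. Nrp2, the VEGF-C co-receptor, was below the measured level in its mean over the 2 sums, yet stood at 191 CPM in KO and 102 CPM in WT rule cells, against 24.6 and 28.5 CPM. The ligand gene Vegfc had 5 UMIs in 1 KO rule cell and 0 in WT rule cells, and Vegfd and the processing gene Ccbe1 had 0 in both.

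Of 40 other genes known to be enriched in lymphatic endothelium and present in the files, 22 were measured, with 13 higher and 2 lower. Fgl2, which encodes fibrinogen-like protein 2, stood at 2034 CPM in KO and 2202 CPM in WT rule cells, against 108 and 112 CPM in the others, and had a UMI in 147 and 34 of the cells. Prelp, a leucine-rich matrix proteoglycan, stood at 452 and 461 CPM against 37.5 and 14.3 CPM; Lbp, the lipopolysaccharide-binding protein, at 715 and 486 CPM against 69.0 and 30.7 CPM; and Clca3a1 at 532 and 474 CPM against 40.9 and 29.6 CPM. The lower members were Gsn (gelsolin) and Tmem176b. Among genes most apart of all measured, the growth factor binding protein gene Igfbp5 stood at 2938 CPM in KO and 2919 CPM in WT rule cells, against 72.2 and 98.7 CPM. Ptn, the heparin-binding growth factor pleiotrophin, stood at 1193 and 717 CPM against 57.3 and 66.9 CPM. The protease inhibitor gene Serpine2, at 586 and 922 CPM, was 10.1-fold higher in KO (8.34 to 12.1) and 40.0-fold higher in WT (24.3 to 68.5). Nsg1, of endosomal trafficking, was 16.2-fold higher in KO and 33.1-fold in WT; Dusp2, a phosphatase of MAP kinases, 27.2-fold and 35.9-fold; Gja1, the gap junction protein connexin 43, 14.2-fold and 17.3-fold; and the interferon-inducible Ifi27l2a 9.10-fold and 15.5-fold.

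Genes of blood endothelium were low in the rule cells. Of 30 such genes 17 were measured and 11 were at least 2-fold lower in both libraries, none higher, with a median log2 ratio of -2.09 in KO, beside 0.01 over all genes measured. Cytl1, a small secreted protein abundant in the aortic lining, stood at 395 CPM in KO and 64.0 CPM in WT rule cells, against 13086 and 15777 CPM in the others. Vwf, von Willebrand factor, stood at 72.3 CPM in KO rule cells and 0 UMIs in WT, against 1060 and 1167 CPM. The surface antigen gene Ly6c1 had 28.4 CPM in KO and 0 UMIs in WT, against 1279 and 1415 CPM. The calcification inhibitor gene Mgp (682 and 102 CPM, against 10255 and 7101 CPM) and the secreted chaperone gene Clu (612 and 38.4 CPM, against 6631 and 4766 CPM) were the others with residual counts in KO. In these 2 genes 1 KO rule cell gave 38.3% and 62.9% of the KO UMIs. Edn1, the precursor of the vasoconstrictor endothelin-1, was 12.9-fold lower in KO and 30.2-fold lower in WT, where it had 2 UMIs (interval of the ratio 0.00401 to 0.120). The growth factor gene Bmp4 was 10.8-fold lower in KO and 23.9-fold lower in WT on 3 UMIs (interval of the ratio 0.00862 to 0.123), the WNT antagonist gene Sfrp1 10.6-fold lower in KO with 0 UMIs in WT, and the matrix gene Bgn (biglycan) 7.90-fold and 24.2-fold lower. Srgn, Ly6a and Htra1, between 11.6-fold and 17.3-fold lower in KO, and Emp2, with 3 KO UMIs (ratio 0.0271, 0.00558 to 0.0793), were also among the 14 lowest genes, with 0 UMIs in WT.

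Genes shared by all endothelium were kept but not evenly. Of 18 measured pan-endothelial genes 1 was higher (Kdr) and 5 lower. Cdh5, whose promoter drove the label, stood at 338 CPM in KO and 435 CPM in WT rule cells, against 496 and 507 CPM in the others. Pecam1, the adhesion molecule CD31, was lower, at 627 and 525 CPM against 2862 and 3114 CPM, and Esam, Icam2, Cd93 and Tek were the other lower genes. Cldn5, the tight junction protein claudin 5, was 1.97-fold higher in both libraries and so just under the 2-fold mark.

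The lists of function gave smaller counts. Of 8 measured lipid handling genes 2 were higher, Gpihbp1, which holds lipoprotein lipase on endothelium (4.57-fold in KO and 2.23-fold in WT), and the lipase gene Mgll, and 2 were lower, the fatty acid binding protein Fabp4 and the scavenger receptor Cd36. Of 16 measured matrix genes 1 was higher (Igfbp5) and 6 lower, of 11 junction genes 1 higher (Gja1) and 5 lower, and of 5 measured collecting and valve genes 1 higher (Gja1) and 4 lower (Bmp4, Esam, Fn1 and Gja4). The 4 measured initial capillary genes gave 1 higher (Pdpn) and 2 lower (Cd36 and Cd200). Chemokine and leukocyte traffic genes, of which 7 were measured, gave 0 higher and 2 lower (Vcam1 and Cd200), and the interferon response list 1 higher of 6 (Ifi27l2a). No gene was past 2-fold in both libraries among 8 antigen presentation, 19 immediate early and stress, 2 axon guidance and 11 mitochondrially encoded genes. The antigen presentation genes were lower in WT than this count shows, with a median log2 ratio of -0.48 in KO and -1.63 in WT. Of these 8 genes 6 had ratios below 1 in both libraries and 1 had ratios above 1 in both.

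Transcripts of other cell types were scarce in WT rule cells and less so in KO. The 10 smooth muscle markers summed to 1402 CPM in KO and 51.2 CPM in WT rule cells, against 1977 and 1514 CPM in the other aortic cells, and 2 of 10 were at 0 in KO and 9 of 10 in WT. The 10 fibroblast markers summed to 607 and 38.4 CPM, with 1 and 9 at 0. Only 4 and 8 KO rule cells held 2 or more of these smooth muscle or fibroblast markers, and no WT rule cell did. The KO sums were concentrated in few cells. Of 543 smooth muscle UMIs in KO, 291 were of Acta2 in 4 cells, and of 235 fibroblast UMIs 169 were of Dcn in 8 cells. The highest share of a single KO rule cell's UMIs was 4.86% for smooth muscle and 1.65% for fibroblast markers. Macrophage markers summed to 7.74 CPM in KO and 0 in WT, lymphocyte markers to 5.16 and 0, erythroid markers to 5.16 and 0, and mesothelial markers to 10.3 and 0. Schwann cell markers gave 5.16 and 0 CPM and adipocyte markers 2.58 and 0 CPM. Scrublet, a doublet caller, marked 1 KO and 0 WT rule cells, out of 3 calls in each library, and none was removed.

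Among themselves the rule cells divided into a pair of groups when all kept aortic cells were clustered. The Ccl21a group, led by Ccl21a, Lyve1, Mmrn1, Reln, Pdpn, Adgrg3, Thy1 and Maf, held 112 of 161 KO rule cells (69.6%, 61.8 to 76.6) and 35 of 38 WT rule cells (92.1%, 78.6 to 98.3). The Nts group, led by Nts, Ptn, Cldn11, Igfbp5, Nsg1, Ednrb, Dusp2 and Clca3a1, held 44 KO (27.3%, 20.6 to 34.9) and 3 WT rule cells (7.89%, 1.66 to 21.4), along with 32 cells outside the rule. The last 5 KO rule cells lay in other clusters of aortic cells, 1 of them in the cluster led by the smooth muscle genes Tpm2, Myl9, Cnn1 and Myh11, and held 1166 to 21609 UMIs with a median of 8584. Some genes that lead the Nts group also stood apart between the libraries, and a group drawn almost wholly from 1 library may be that library rather than a kind of cell, so these shares are the makeup of each library and not a comparison.

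In KO, where both groups had cells enough to describe, Ccl21a stood at 3570 CPM in the Nts group (13 of 44 cells with a UMI) and at 44640 CPM in the Ccl21a group (107 of 112 cells). Nts stood at 5527 CPM in the Nts group and 1425 CPM in the Ccl21a group. Lyve1 was likewise low in the Nts group, at 446 CPM against 3914 CPM, and so was Flt4, at 197 CPM against 628 CPM, whereas Prox1 was alike at 223 and 267 CPM. Cldn11, the tight junction protein claudin 11, stood at 352 and 102 CPM. Plat, which encodes tissue plasminogen activator, stood at 995 CPM in the Nts group and 49.0 CPM in the Ccl21a group. Ackr4, the scavenging receptor that takes up CCL21, had 26 UMIs in 7 of 44 KO cells of the Nts group and 0 UMIs in the 112 cells of the Ccl21a group. Foxc2, the valve factor, did not set the groups apart, at 85.8 CPM (41.2 to 158) and 62.3 CPM (34.1 to 105). The genes shown clustered the cells, so their differences describe the groups and test nothing.

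**Figure D3:**
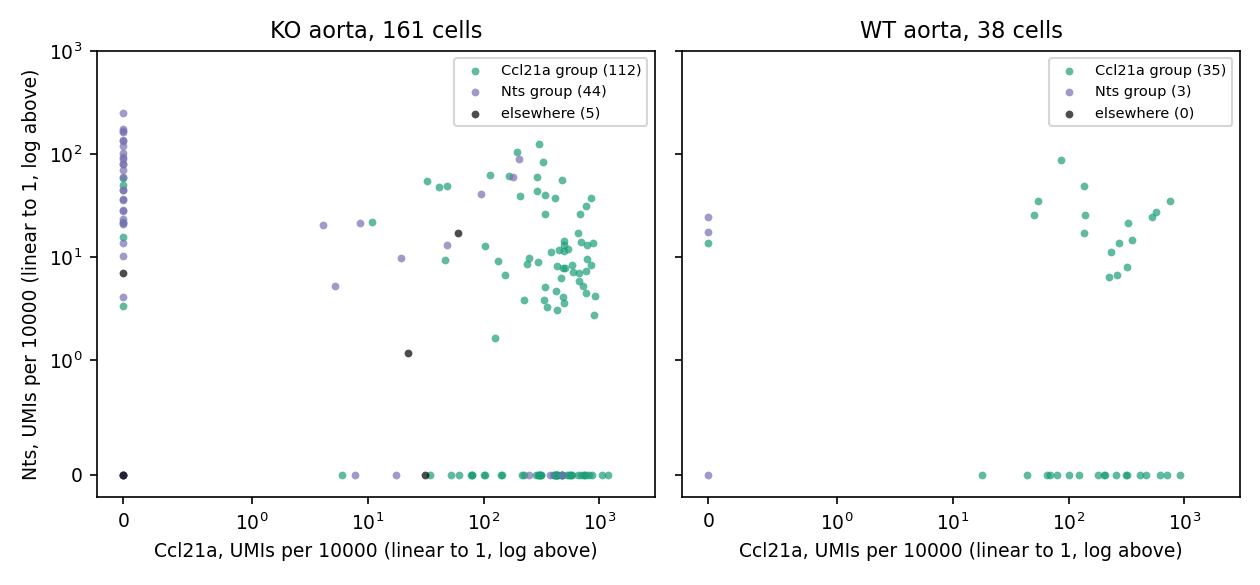
Each point is 1 lymphatic rule cell, by its Ccl21a (horizontal) and Nts (vertical) UMIs per 10000 of the cell, linear to 1 and logarithmic above, KO left and WT right, coloured by group. Most Nts group cells of KO lie at 0 Ccl21a with high Nts, while the WT panel holds 3 cells of that group and 35 of the Ccl21a group.

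Set side by side, KO and WT rule cells had most of their measured lymphatic genes within 2-fold of each other, while more genes were past 2-fold than among the other aortic cells. Of 1636 genes measured, 78 were at least 2-fold higher in KO (4.77%) and 102 at least 2-fold lower (6.23%). Among the other aortic cells 8 of 1512 were higher (0.529%) and 16 lower (1.06%). The WT sum rests on 38 cells and 78109 UMIs, where a gene at 100 CPM has about 8 UMIs; 59 of the higher and 91 of the lower genes had an interval of the ratio that left out 1. Scaling by trimmed means (TMM) moved every ratio up by 0.20 on the log2 scale and turned the split into 125 higher and 62 lower, and median-of-ratios scaling into 129 higher and 60 lower, so which direction holds more genes depends on the scaling. The split also turned when every cell was thinned to 1000 UMIs, to 67 higher and 30 lower, when the highest cell per gene was left out, to 94 and 47, and in the cluster led by Ccl21a and Mmrn1, to 75 and 67. The other WT cells held 911648 UMIs, and the part of this gap in depth was not tested. The shares within 1.5-fold were 69.9% of genes in rule cells and 94.9% in the others.

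Of the rule's 8 markers only Nts was past 2-fold between genotypes, at a ratio of 2.08 (1.69 to 2.60), and within the Ccl21a group it stood at 1425 CPM in KO and 1240 CPM in WT, a ratio of 1.15 (0.906 to 1.47). Prox1 had a ratio of 0.897 (0.548 to 1.54) and Flt4 of 0.952 (0.661 to 1.41). Lyve1 had 0.587 over all rule cells and 0.864 (0.760 to 0.985) within the Ccl21a group, and Mmrn1 0.606 and 0.812 (0.708 to 0.932). Ccl21a had 1.06 over all rule cells and 1.61 (1.53 to 1.69) within the group. Of 5 measured lymphatic transcription factors 1 was lower, Sox18 (59.4 CPM in KO and 166 CPM in WT), which acts ahead of Prox1 in development, and none higher. All 11 measured lymphangiogenic ligands and receptors were within 2-fold. Of 26 other lymphatic-enriched genes 3 were higher (Lrg1, Gpr182 and Cldn11) and 1 lower (Dtx1). Initial capillary genes gave 0 of 5 past 2-fold and axon guidance genes 0 of 7.

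Of the lists with at least 5 measured genes, antigen presentation had the median farthest from 0, with 4 of 7 measured members higher and 1 lower, and a median log2 ratio of 1.17 beside -0.05 over all genes. B2m, the light chain of class I molecules, stood at 3503 CPM in KO and 883 CPM in WT rule cells, a ratio of 3.97 (3.11 to 5.13), against 4760 and 3342 CPM in the other aortic cells, a ratio of 1.42. Per cell it ran from 0 over a median of 2614 to 11823 CPM in KO and from 0 over 673 to 7207 CPM in WT. It had a UMI in 150 of 161 KO and 23 of 38 WT rule cells. Both ranges overlap, with the WT median well under the KO one. At 1000 UMIs per cell B2m was detected in 87.1% of KO (80.2 to 92.3) and 41.4% of WT rule cells (23.5 to 61.1), against 96.0% and 89.8% of the other cells. H2-K1, a class I heavy chain, stood at 1009 and 243 CPM, a ratio of 4.15 (2.62 to 6.97), and H2-D1, another, at 2977 and 1319 CPM, a ratio of 2.26 (1.84 to 2.79). H2-Q4 was higher with few counts (63 UMIs in KO and 5 in WT). H2-T23, a nonclassical heavy chain, was the lower member, at 121 CPM in KO and 333 CPM in WT. The class I genes are near copies of each other in part, and 14.1% of the 3′ stretches of H2-K1, 19.4% of H2-D1, 28.5% of H2-Q4 and 20.5% of H2-T23 occur in other genes, but none of those of B2m.

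Within the Ccl21a group, where the makeup of the 2 libraries is nearer but not equal, 73 of 1541 genes were at least 2-fold higher in KO (4.74%) and 67 lower (4.35%). When the rule cells alone were clustered, a sub-cluster of 45 cells held 44 KO cells and 1 WT cell. Of these 45 cells 34 lay in the Ccl21a group, so its ratios are not matched for makeup. There B2m had a ratio of 4.17 (3.15 to 5.63), H2-K1 of 3.36 (2.01 to 6.01) and H2-D1 of 1.99 (1.59 to 2.51). Lrg1, a secreted glycoprotein of TGF-beta signalling, stood at 1190 CPM in KO and 307 CPM in WT over all rule cells, a ratio of 3.87 (2.57 to 6.11), and at a ratio of 4.21 (2.73 to 6.83) within the group; the other aortic cells had 454 and 337 CPM. Ednrb, the endothelin B receptor, stood at 385 CPM in KO (62 of 161 cells) and 51.2 CPM in WT (4 of 38 cells), a ratio of 7.51 (2.87 to 27.9), and 5.75 (1.87 to 28.8) within the group. Plvap, the diaphragm protein of fenestrae and caveolae, stood at 614 and 128 CPM, a ratio of 4.80 (2.56 to 10.1), and 9.38 (3.10 to 46.3) within the group on 3 WT UMIs. Plat, in contrast, had a ratio of 6.21 (2.60 to 19.4) over all rule cells and 1.17 (0.310 to 6.54) within the group.

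**Figure D4:**
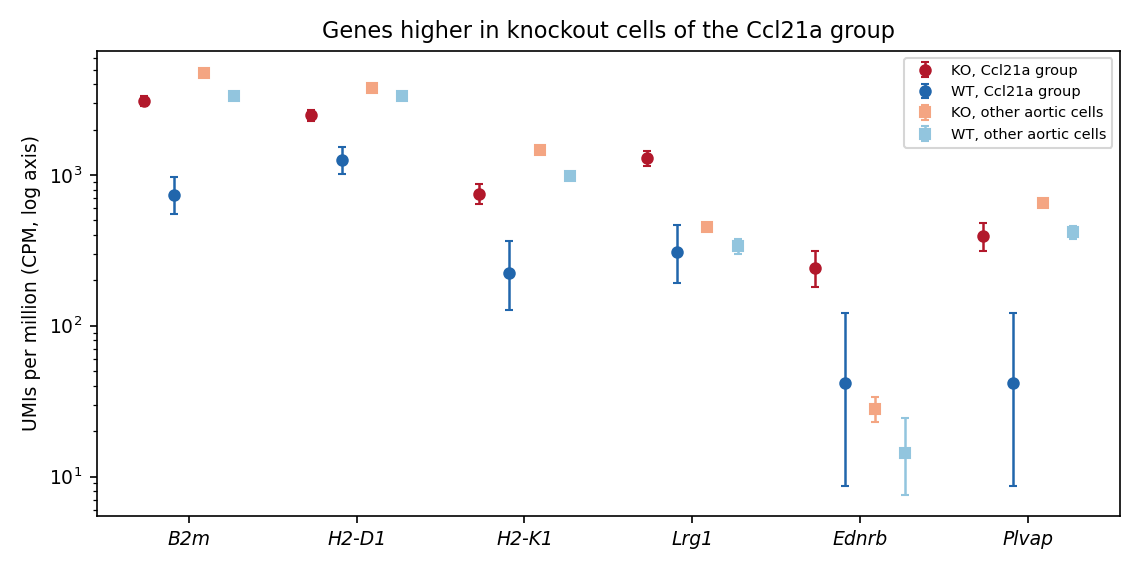
Summed CPM (logarithmic axis) of 6 genes that were higher in KO, in KO and WT cells of the Ccl21a group and in the other aortic cells; bars are exact Poisson 95% intervals. All 6 genes had an interval of the KO over WT ratio in the group that left out 1. The wide WT intervals of Ednrb and Plvap rest on 3 UMIs each.

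Vcam1, Clu, Mgp, Sparc and Cytl1, also named as highest in KO rule cells, had UMIs in 19, 31, 55, 20 and 36 of the 161 KO rule cells. Vcam1, an adhesion molecule of activated endothelium, had 128 UMIs in 19 of 161 KO rule cells, 56.2% of them in 1 cell, and 0 in WT, which is at least 8.60-fold higher; within the Ccl21a group it had 26.7 CPM in KO and 0 UMIs in WT. Clu had a ratio of 15.9 (5.39 to 77.8) on 3 WT UMIs, Mgp of 6.65 (3.33 to 15.6), the matrix protein gene Sparc of 6.53 (2.74 to 20.4) with 56.2% of the KO UMIs in 1 cell and the 5 WT UMIs in 1 cell, and Cytl1 of 6.17 (2.59 to 19.3). The smooth muscle and fibroblast sums moved the same way, at 1402 and 607 CPM in KO against 51.2 and 38.4 CPM in WT. Both KO sums rested largely on few cells. Their part in these ratios was not tested. The 5 KO rule cells in other clusters held 46269 of the 387348 KO UMIs, and WT had 0 such cells. In the largest sub-cluster of the rule cells (79 KO and 29 WT cells) the levels were nearer, on 2 to 4 WT UMIs. There Clu stood at 74.0 CPM in KO and 61.4 CPM in WT, Mgp at 185 and 81.8 CPM, and Cytl1 at 74.0 and 40.9 CPM. Blood endothelial genes gave 4 higher (Vcam1, Cytl1, Plvap and Aqp1) and 0 lower of 11, and matrix genes 3 higher (Mgp, Sparc and Bgn) and 2 lower (Nid1 and Col4a1) of 16. Esam and Cldn11 were the higher members of the collecting and valve list (2 of 4) and of the junction list (2 of 10), and Esam was the sole one past 2-fold of 17 pan-endothelial genes. Chemokine and traffic genes gave 1 higher (Vcam1) and 1 lower (Ccl21c) of 8.

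Of 9 measured lipid handling genes 2 were higher in KO and 1 lower. Lpl, the gene of lipoprotein lipase, stood at 281 CPM in KO (65 of 161 cells) and 64.0 CPM in WT (5 of 38 cells), a ratio of 4.40 (1.83 to 13.8), and within the Ccl21a group at 4.71 (1.75 to 17.9); in the other aortic cells it was lower in KO, at 66.5 and 188 CPM. Fabp4 stood at 811 and 243 CPM, but 94.7% of the WT UMIs lay in 1 cell. Acadm, of fatty acid oxidation, was the lower member, at 67.1 and 154 CPM. All 6 measured interferon response genes had ratios over 1, with a median log2 ratio of 0.52, beside -0.05 over all genes. Only 1 was past 2-fold, the GTPase gene Iigp1, at 196 CPM in KO and 38.4 CPM in WT, a ratio of 5.11 (1.68 to 25.3) on 3 WT UMIs. Within the Ccl21a group 0 of 5 measured were past 2-fold, with a median log2 ratio of 0.38.

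Among genes lower in KO rule cells, Cebpb, a transcription factor of stress and differentiation, stood at 124 CPM in KO (36 of 161 cells) and 448 CPM in WT (24 of 38 cells), a ratio of 0.277 (0.175 to 0.441). Dtx1, a regulator of Notch signalling and near absent from the other aortic cells (1.98 and 2.19 CPM), stood at 163 and 461 CPM, a ratio of 0.353 (0.231 to 0.547). Within the Ccl21a group their ratios were 0.365 (0.226 to 0.592) and 0.426 (0.265 to 0.691). Tppp3, a tubulin-binding protein, stood at 429 and 1152 CPM, and Palm, of the membrane skeleton, at 186 and 538 CPM. Of the WT Tppp3 UMIs 49 lay in 8 rule cells of 1 sub-cluster and 41 in the largest sub-cluster. Gpx3, a secreted glutathione peroxidase, stood at 38.7 and 256 CPM, the matrix protein gene Tgfbi at 230 and 602 CPM and the splicing gene Prpf38b at 72.3 and 243 CPM. Apod (263 and 819 CPM) was concentrated, with 67.2% of its WT UMIs in 1 cell. Plac9b (54.2 and 371 CPM) and Gstp1 (92.9 and 294 CPM) share 100% and 53.0% of their 3′ stretches with other genes, and were also lower in the other KO cells, at ratios of 0.291 and 0.438, so they are uncertain. Ccl21c had 20 UMIs in KO and 15 in WT and belongs to the Ccl21 family above. Hspa1a, Fos and Atf3 were lower and Ier3 higher among 18 immediate early and stress genes, of a median log2 ratio of -0.47. Fos, the immediate early transcription factor gene, stood at 1262 CPM in KO and 2701 CPM in WT, a ratio of 0.467 (0.397 to 0.552), with 32.2% of the WT UMIs in 1 cell and a ratio of 0.643 without the highest cell of each library. Within the Ccl21a group 10 of these 18 genes were lower and 0 higher, with a median log2 ratio of -1.05 beside -0.03 over all genes. The WT counts were uneven over cells. Of WT Fos UMIs 179 lay in 8 rule cells of 1 sub-cluster, and 32 in the 29 WT cells of the largest sub-cluster. There Fos stood at 303 CPM in KO and 655 CPM in WT. Of the group's WT Atf3 UMIs 54.5% lay in 1 cell. The part of such cells in the list median was not tested. The mitochondrially encoded list gave 0 higher and 1 lower (mt-Atp8) of 12.

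**Figure D5:**
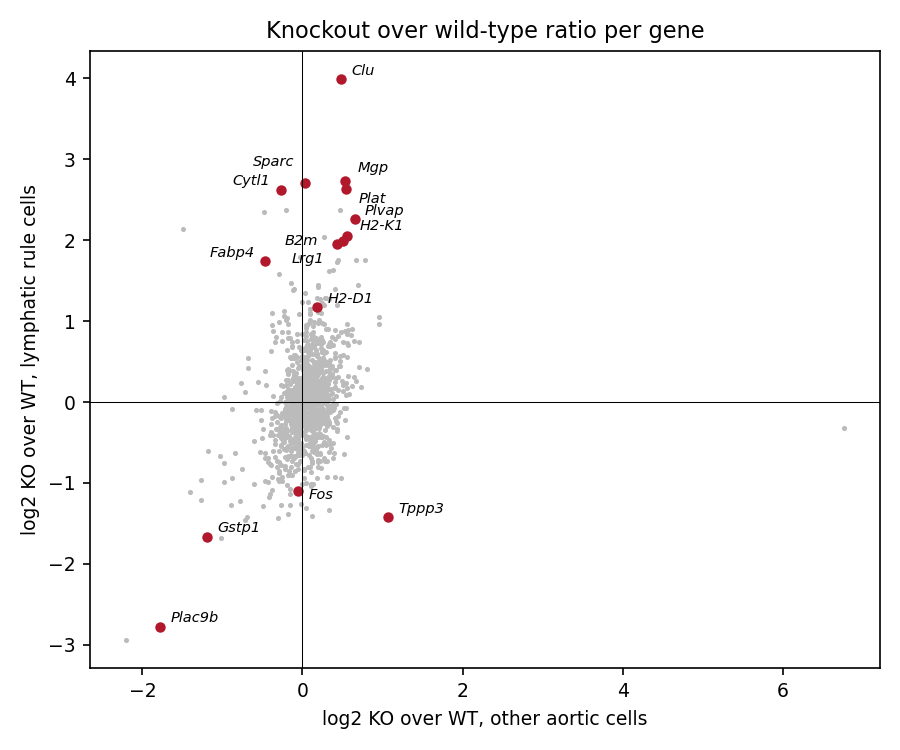
Log2 ratio of KO over WT of each gene measured in both comparisons, in the other aortic cells (horizontal) and in the lymphatic rule cells (vertical). Points spread further along the vertical axis, where 69.9% of genes are within 1.5-fold, than along the horizontal, where 94.9% are; Tppp3, at ratios of 0.372 and 2.09, lies on opposite sides, and the point farthest right is Lcn2, at 238 CPM in other KO cells and 2.19 CPM in other WT cells.

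The same rule found 65 cells in the lung libraries of the same mice, 21 of 508 kept KO cells (4.13%, 2.58 to 6.25) and 44 of 775 kept WT cells (5.68%, 4.16 to 7.55). Tissue, deposit and the naming of genes moved together there, and cannot be told apart. The rule also took Flt1-bearing cells in the lung. Of lung cells with 3 markers, 2 of 6 KO and 4 of 13 WT cells had a UMI of Flt1, against 2 of 28 and 0 of 5 in the aorta. Of 916 genes measured in all, 19 were at least 2-fold higher in aortic than in lung rule cells in both genotypes (2.07%) and 26 lower (2.84%). With at least 4 markers, where 790 genes were measured, 15 of these higher and 7 of these lower genes remained. Over the alternatives the mean log2 ratio of Epas1 ran from -2.15 to -0.063, and that of Ly6a from -3.09 to -0.64. The part of blood endothelial cells among the lung rule cells in the lower genes was not tested. Ptn stood at 1193 CPM in the KO aorta and 717 CPM in the WT aorta, against 41.4 CPM in the KO lung and 110 CPM in the WT lung. Igfbp5 was 5.07-fold higher in KO (3.49 to 7.66) and 4.35-fold in WT (3.30 to 5.80), Serpine2 4.72-fold and 7.08-fold, and the chemokine scavenger gene Ackr3 4.03-fold and 3.84-fold. Of the rule's markers Lyve1 was higher in the aorta, at 2458 CPM (KO) and 4186 CPM (WT) against 911 and 1342 CPM in the lung. Ccl21a stood at 27100 and 25490 CPM in the aorta against 44703 and 42114 CPM in the lung. The ratio was 0.606 (0.579 to 0.635) in KO and 0.605 (0.574 to 0.639) in WT. These aortic sums differ in makeup, so the like ratios are not those of like cells. In KO 112 cells of the Ccl21a group stood at 44640 CPM and 44 of the Nts group at 3570 CPM. In WT 35 cells of the Ccl21a group stood at 27740 CPM, beside 3 of the Nts group with 0 UMIs. Crip1, Gas6, Apod and Tagln2 were the other genes named as higher. Those named as lower included Hpgd, the prostaglandin-degrading enzyme, with 0 UMIs in the aortic rule cells of both genotypes against 662 CPM in the KO lung and 471 CPM in the WT lung, the water channel gene Aqp1 (501 and 205 CPM against 1966 and 2513 CPM), Cd36, Ly6c1, Ly6a, the metallothionein gene Mt1, Ier3 and Epas1. In the lung, B2m stood at 4429 CPM in KO and 3394 CPM in WT rule cells, beside 3503 and 883 CPM in the aorta, and whether the genotypes differ between the tissues was not tested.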

How the data were processed

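Each deposited matrix holds UMI counts, whole numbers for every gene in every cell. The submitters' processing notes name Cell Ranger and mm10 as what the authors used to make them; the version and the annotation are not given in the sources used. The libraries were 10x Chromium captures of sorted eYFP+ cells, 1 per tissue and genotype, per the labels' protocols. Aortic files name genes by symbol and lung files by Ensembl identifier, of which 30934 of 31053 matched GENCODE M21; 112 lung symbols were renamed to the older aortic ones through RefSeq synonyms.

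Cells were kept with 500 or more UMIs and a mitochondrial share of 15% or less, which removed some barcodes (54 KO aorta, 45 WT aorta, 21 KO lung, 25 WT lung). UMIs of the cells compared were summed per library and expressed as CPM with exact Poisson 95% intervals. Ratios have exact conditional and shares exact Clopper-Pearson 95% intervals. PCR duplicates are collapsed by the UMIs, and these intervals cover counting error only, not differences between mice. A gene was measured when its mean over the sums compared reached 100 CPM and its UMIs together 30, and called apart at 2-fold, in both libraries where 2 were used. No correction for free RNA was made and no doublets were removed. Clusters are Leiden clusters (scanpy 1.11.5; seed 1), and TMM factors are from edgeR 4.0.16. Cells are not replicates and no test was run across them. The ratio and interval calculation was tested on simulated data.

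Genes are named by a rule: the 14 highest and 14 lowest (rule cells over others), 12 and 12 (KO over WT) or 8 and 8 (aorta over lung) by the interval bound nearest to 1, without mitochondrially encoded, ribosomal, haemoglobin and unnamed genes and markers of non-endothelial cell types, and the leading members of 25 lists. Leading genes of the groups of cells, Lcn2 and the Ccl21 copies besides Ccl21b and Ccl21c are named outside that rule, chosen after their values were seen. Not every gene the rule picks is reported here. The members, lists and this rule were chosen with earlier results of these data known. The alternatives changed the number of markers, the cell filters, the depth, the scaling, the minimum level and single cells.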

Additional observations from a re-analysis of the deposited data

Results flagged for a closer look

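For 8 genes the ratio of KO over WT in the lymphatic rule cells lay on the other side of 1 from that in the other aortic cells. With 1 library per genotype this difference was not tested, and 1 library cannot separate mice. Tppp3 had a ratio of 0.372 in rule cells and 2.09 in the others, with 49 of its WT rule cell UMIs in 8 cells of 1 sub-cluster. In the largest sub-cluster it was nearer, at 629 CPM in KO and 839 CPM in WT. Apod had 0.321 and 5.79, with most of its WT rule cell UMIs in 1 cell. Prpf38b had 0.297 and 1.40. Tgfbi had 0.382 in rule cells, while the other cells stood at 24.3 CPM in KO and 0 UMIs in WT. Lpl, of lipoprotein hydrolysis, had 4.40 and 0.354, and Fabp4, of fatty acid transport, 3.33 and 0.723. Iigp1 had 5.11 and 0.719, and Cytl1 6.17 and 0.829.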

How the results depend on the processing

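The 161 and 38 rule cells made 10.3% of kept KO and 9.41% of kept WT aortic cells. With at least 2 markers the KO share was 12.7%, with at least 4 markers 8.48%, with every cell thinned to 1000 UMIs 7.81%, and as the cluster led by Ccl21a and Mmrn1 7.46%. Without cells holding 2 or more markers of other cell types it was 17.4% in KO and 14.7% in WT, since such cells are nearly all outside the rule.

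Counts of genes followed the minimum level. With a mean of at least 20 CPM there were 404 higher and 313 lower genes for rule cells over others, 703 and 789 for KO over WT and 136 and 245 for aorta over lung; with at least 200 CPM these were 54 and 62, 26 and 27, and, for lower genes of the aorta over the lung, 17. Thinning to 1000 UMIs gave 65 higher genes in rule cells over others, and 67 higher and 30 lower in KO over WT, against 78 and 102 as reported. Scaling by TMM gave 125 higher and 62 lower genes in KO over WT, and 29 higher in aorta over lung; median-of-ratios scaling gave 129 and 60 in KO over WT. Without the highest cell per gene 94 were higher and 47 lower in KO over WT, and 31 higher and 15 lower in aorta over lung. In the cluster led by Ccl21a and Mmrn1 75 were higher and 67 lower in KO over WT, and with at least 4 markers 10 were lower in aorta over lung.

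Of the named genes, 66 of 71 for rule cells over others, 16 of 16 for aorta over lung and 47 of 68 for KO over WT kept their sign under every alternative run. Those that changed sign in rule cells over others were 5 genes within 2-fold, and in KO over WT 14 within 2-fold and 7 of the 36 past it. These 7 had the following log2 ratios of KO over WT. Vcam1 stood at -1.68 when thinned and -0.67 in the cluster. Vcam1 and, in the cluster, Sparc had 0 UMIs in WT and were set against the floor of 3 counts, so their sign there cannot be read. Sparc stood at -0.68 when thinned, -0.34 without cells holding markers of other cell types, -0.45 in the cluster and -0.20 without rule cells holding 10 or more UMIs of Cytl1, Mgp, Clu and Vcam1 together, an alternative chosen after seeing the data. With at least 2 markers Mgp stood at -0.40, Cytl1 at -0.90 and Esam at -0.34. Hspa1a stood at 0.94 without the highest cell per gene, and Ier3 at -0.094 when thinned and -0.088 in the cluster. The cause was not tested in any of these.

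No paired analysis was possible because each group is 1 library, which leaves no spread between samples. The 38 WT rule cells and 78109 UMIs limit every KO over WT value, a gene without a UMI in WT may stand at up to 38.4 CPM, and mice within a library cannot be told apart.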
